A study of Mus musculus with 13 samples.

Results

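The genes described are the heme oxygenases Hmox2 and Hmox1 and the biliverdin reductases Blvra and Blvrb. They were chosen by name, as 4 of the 36109 genes with a listed transcript, and 19 listed transcripts belonged to them (6 for Hmox2, 2 for Hmox1, 5 for Blvra and 6 for Blvrb). RNA was sequenced from aortic endothelial cells (ECs) of 3 Hmox2+/+ and 3 Hmox2-/- mice, and from whole hearts of 4 Hmox2+/+ and 3 Hmox2-/- mice, all kept in room air. The Hmox2-/- mice carried a deletion of Hmox2 and the Hmox2+/+ mice were wildtype littermates. The study describes the sequenced mice as young. Their sex and strain and the position of the deletion within the gene were not given in the sources used here. Libraries are named below by tissue, genotype (WT for Hmox2+/+, KO for Hmox2-/-) and number, as in EC KO 3.

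Heme oxygenases sit in the membrane of the endoplasmic reticulum and open the heme ring with electrons from cytochrome P450 reductase, releasing iron, carbon monoxide and biliverdin. Biliverdin reductases in the cytosol then reduce biliverdin to bilirubin, an antioxidant. HMOX1 is the isozyme known for strong induction by heme and oxidative stress and is abundant in macrophages that clear red cells, while HMOX2 is known as the isozyme that most tissues express without induction. BLVRA acts on the main adult isomer of biliverdin, and BLVRB, also known as flavin reductase, on other isomers and on flavins, with high levels in red cells.

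Total estimated counts per library were 26067147 to 31138642 in ECs and 29815090 to 31619776 in heart tissue, except 7268626 in Heart WT 1. Transcripts encoded by mitochondrial DNA took 37.6% to 44.3% of the counts in Hmox2+/+ hearts, 22.5% to 27.2% in Hmox2-/- hearts and 19.4% to 30.9% in ECs. The Y-linked helicase gene Ddx3y was at 1.03 CPM (counts relative to a fixed library size) in EC KO 2 and 0.92 CPM in EC KO 3, against 61.7 to 86.4 CPM in the other EC libraries. Every Hmox2+/+ EC library held Ddx3y, so in ECs genotype is partly confounded with this difference, which may be one of sex. The part of each in the EC and interaction values below cannot be told apart. Every heart library held Ddx3y, at 61.6 to 86.5 CPM in Hmox2+/+ and 37.0 to 50.9 CPM in Hmox2-/- hearts. This was a log2 fold change of -0.82 (adjusted p = 0.00272, edgeR), and its cause was not tested. EC RNA was obtained by flushing lysis reagent through the aorta, and markers of other cells were present in it, and several marker sums did not overlap between genotypes. In Hmox2+/+ and Hmox2-/- ECs, 12 endothelial genes summed to 4117 to 6058 and 6743 to 8794 CPM, 8 fibroblast genes to 4981 to 8131 and 9680 to 11017 CPM, and 7 adipocyte genes, with overlap, to 4715 to 7188 and 6742 to 7229 CPM. The genes of a list did not all move with its sum. Of the 12 endothelial genes 5 rose and 1, Kdr, fell (log2 fold change -0.58, adjusted p = 0.0233, edgeR). Of the 8 fibroblast genes 3 rose and 0 fell, where 18.1% of all genes tested passed the same threshold in ECs. Cardiomyocyte markers summed to 138 to 523 CPM in Hmox2+/+ ECs and 10.8 to 13.1 CPM in Hmox2-/- ECs, and 9 of 10 fell, with a median log2 fold change of -5.47. The part of these cells in the EC values below was not tested. In bulk RNA of this kind, fewer cells of a type and less RNA per cell cannot be told apart.

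Hmox2 was the targeted gene, and its level checks the labels. In ECs, Hmox2 was at 76.2, 66.1 and 63.9 CPM in the Hmox2+/+ libraries and at 12.6, 13.3 and 14.7 CPM in the Hmox2-/- libraries. In heart tissue it was at 40.7, 42.5, 37.3 and 38.8 CPM in Hmox2+/+ mice and at 8.90, 7.53 and 7.81 CPM in Hmox2-/- mice. All 6 Hmox2-/- libraries lay below every Hmox2+/+ library of their tissue, and none was near 0. The group levels were 68.7 ± 6.54 and 13.6 ± 1.08 CPM in ECs (mean ± SD, n = 3 and 3) and 39.8 ± 2.26 and 8.08 ± 0.72 CPM in heart tissue (n = 4 and 3). Hmox2 fell by 2.34 on the log2 scale in ECs (SE 0.13, adjusted p = 0.000131, edgeR) and by 2.30 in heart tissue (SE 0.11, adjusted p = 1.58e-07), to 19.7% and 20.3% of the Hmox2+/+ CPM. The size of the fall depended on the scale. TPM is a relative abundance that divides counts by transcript length. Length-scaled TPM are the TPM of a gene times its mean length over the libraries, rescaled to the total count of each library. With length-scaled TPM in place of counts, Hmox2 fell by 1.16 on the log2 scale in ECs (adjusted p = 0.00585, edgeR) and by 1.09 in heart tissue (adjusted p = 0.000100). The mean TPM was 57.7 ± 5.60 and 24.99 ± 6.60 in ECs and 29.4 ± 3.85 and 17.2 ± 1.26 in heart tissue.

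Genes were called changed when the p adjusted by Benjamini-Hochberg over every gene tested did not exceed 0.05. In ECs 1 of the 4 genes, Hmox2, was called, where 18.1% of all 15301 genes tested were called. In heart tissue all 4 were called, where 33.4% of 13816 genes tested were called, with Hmox2 lower and Hmox1, Blvra and Blvrb higher in Hmox2-/- mice.

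**Figure D1:**
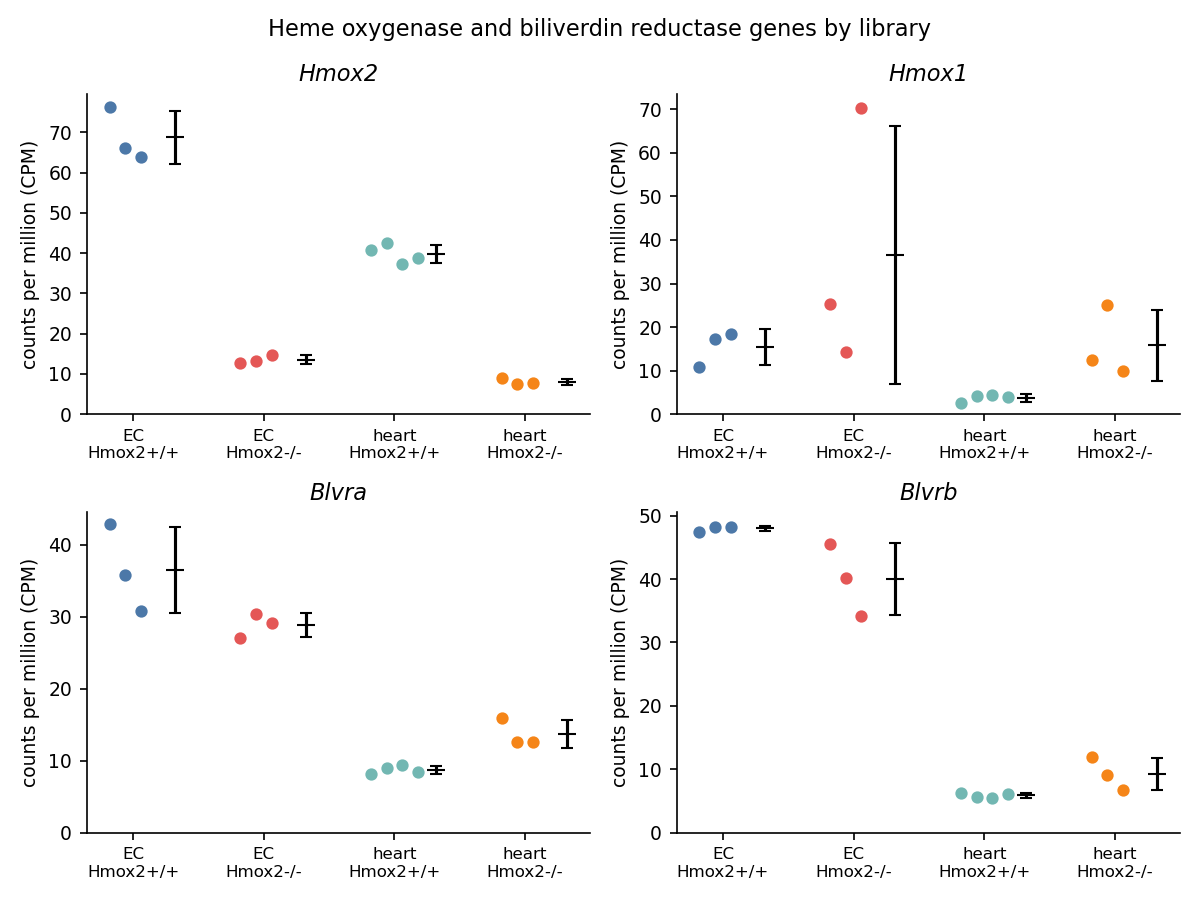
Level in CPM of each of the 4 genes (1 panel per gene) in every library of the 4 groups, with the mean ± SD of each group as a black bar beside its points. Hmox2 was lower in every Hmox2-/- library, and EC KO 3 at 70.2 CPM of Hmox1 stood above the other EC libraries.

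What remained of Hmox2 was not spread evenly over its transcripts. The files list 6 Hmox2 transcripts (chromosome 16, plus strand, GRCm39), and they differ in their first exon and in where they end. Hmox2-201 (first exon at chr16:4544219-4544335), Hmox2-202 (chr16:4574744-4575034) and Hmox2-203 (chr16:4559413-4559603) hold all 6 exons and the whole coding region of 945 bases. Hmox2-204 (chr16:4574858-4574991) ends in exon 4. Hmox2-205 has a first exon at chr16:4574709-4574976, which overlaps those of Hmox2-202 and Hmox2-204, then exons 2 and 3, and ends 79 bases into exon 4, which is 492 bases long in Hmox2-201. Hmox2-206 has only 2 exons and lacks exons 2 and 3. The coding part of Hmox2-205 is therefore 280 bases long and holds the start of the open reading frame without exons 5 and 6. It runs to the last listed base, 584, and does not end in a stop codon, so the listed 3′ end may be incomplete. Whether an RNA ending there was present was not tested, and its estimates below do not show where the RNA ended.

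**Figure D2:**
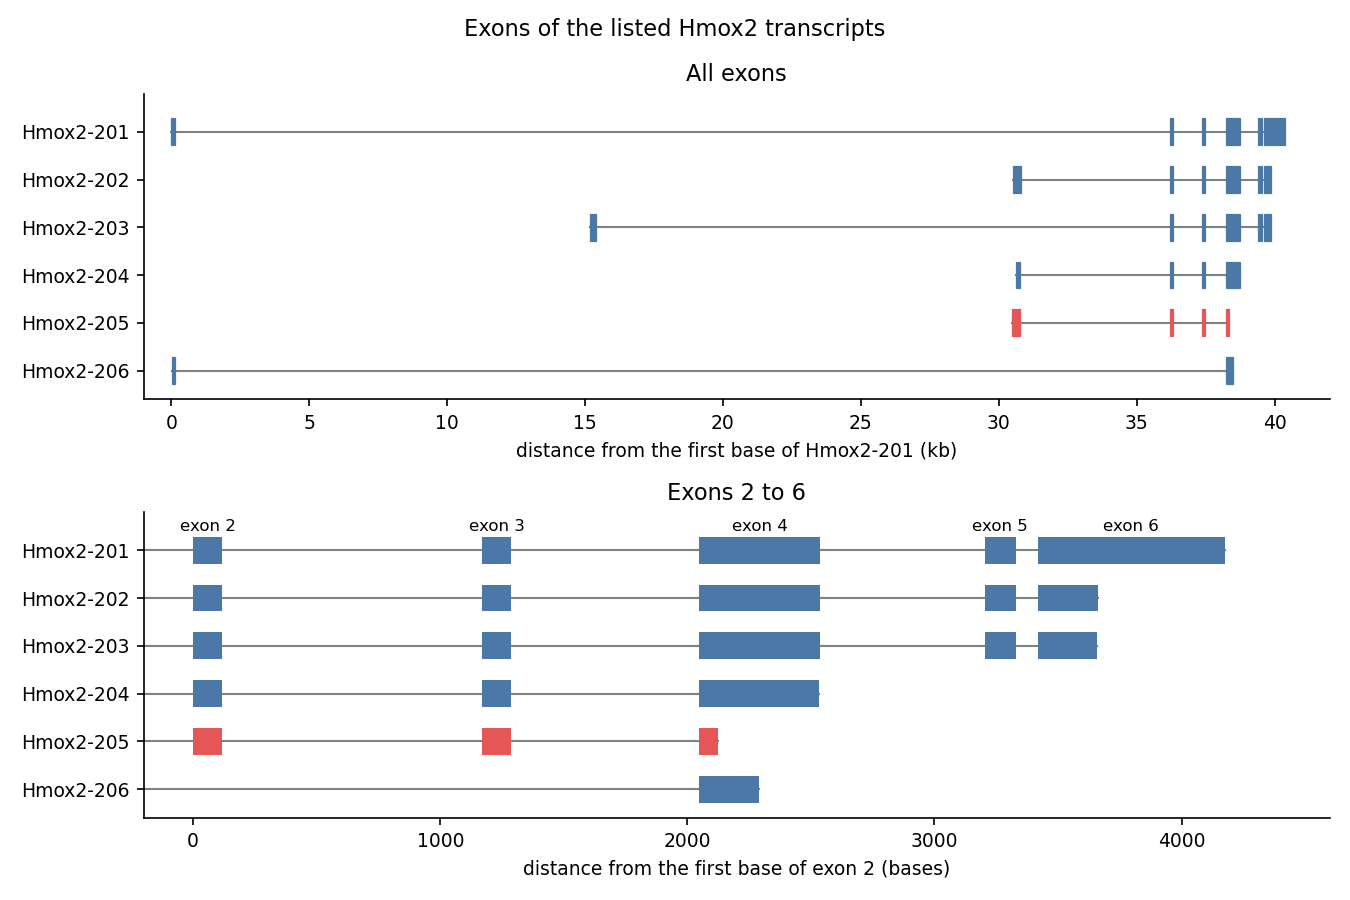
Exons (boxes) of the 6 listed Hmox2 transcripts, drawn to scale as distance in kb from the first base of Hmox2-201 (upper panel) and in bases from the first base of exon 2 (lower panel), with Hmox2-205 in red. Transcripts longer in the annotation than in the files were shortened at their 3′ end to the listed length. Hmox2-205 stops 79 bases into exon 4 and lacks exons 5 and 6.

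The 280 coding bases of Hmox2-205, from GENCODE M39 on GRCm39 (83 bases of exon 2, chr16:4580423-4580541, all 118 bases of exon 3, chr16:4581593-4581710, and 79 bases of exon 4, chr16:4582470-4582548), are shown because Hmox2-205 had the largest share of Hmox2 TPM in every Hmox2-/- library. Capitals mark the sites of the pair of Hmox2 primers that the study used for quantitative PCR (qPCR).
Hmox2-205 coding bases: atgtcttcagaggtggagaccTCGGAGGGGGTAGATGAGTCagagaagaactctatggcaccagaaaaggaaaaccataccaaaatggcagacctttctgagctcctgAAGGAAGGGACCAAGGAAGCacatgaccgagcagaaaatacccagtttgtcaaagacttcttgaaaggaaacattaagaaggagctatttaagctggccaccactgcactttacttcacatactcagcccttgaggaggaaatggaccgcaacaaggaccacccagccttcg
forward primer: tcggagggggtagatgagtc
reverse primer: gcttccttggtcccttcctt
The forward primer matched exon 2 and the reverse primer exon 3, with a product of 107 bases. Both sites were present in 5 of the 6 listed transcripts, Hmox2-205 among them, and absent from Hmox2-206. The qPCR product does not reach exons 4 to 6. With this assay the study reported a significant fall of Hmox2 in both ECs and hearts of Hmox2-/- mice.

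Hmox2-201, the most abundant Hmox2 transcript in Hmox2+/+ libraries, kept a low number of counts in every Hmox2-/- library. In ECs it had 1352, 1202 and 1177 estimated counts in Hmox2+/+ libraries and 131, 155 and 94.9 in Hmox2-/- libraries. In heart tissue it had 181, 832, 649 and 673 estimated counts in Hmox2+/+ libraries and 73.7, 72.8 and 69.4 in Hmox2-/- libraries. The groups did not overlap in either tissue. The log2 fold change was -3.17 in ECs (SE 0.24, adjusted p = 0.00530) and -3.55 in heart tissue (SE 0.13, adjusted p = 8.17e-05), which left 11.1% and 8.51% of the Hmox2+/+ CPM.

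Hmox2-203, which starts at a first exon that no other listed transcript uses, was listed at 0 estimated counts in all 6 Hmox2-/- libraries. It had 602, 637 and 701 estimated counts in Hmox2+/+ ECs and 65.5, 284, 150 and 304 in Hmox2+/+ hearts. Against a floor of 3 counts per library, Hmox2-203 was at least 198-fold lower in Hmox2-/- ECs (adjusted p = 0.00237) and at least 99.8-fold lower in Hmox2-/- hearts (adjusted p = 0.00284).

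Hmox2-205 went the other way. In ECs it had 12.2, 32.2 and 67.5 estimated counts in Hmox2+/+ libraries and 200, 157 and 285 in Hmox2-/- libraries. In heart tissue it had 3.29, 26.9, 24.95 and 18.3 estimated counts in Hmox2+/+ libraries and 169, 164 and 182 in Hmox2-/- libraries. Every Hmox2-/- library was above every Hmox2+/+ library of its tissue. The log2 fold change was 2.79 in heart tissue (SE 0.34, adjusted p = 0.0102), from 0.74 ± 0.25 to 5.24 ± 0.24 CPM. In ECs it was 2.71 (SE 0.59, adjusted p = 0.0512), from 1.20 ± 0.81 to 7.88 ± 2.29 CPM, which just missed the threshold. DESeq2 gave 2.69 in ECs with an adjusted p of 0.000229, and without Heart KO 2 the adjusted p in heart tissue rose to 0.0609.

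The other 3 Hmox2 transcripts were at low counts. Hmox2-204 had 51.7 to 97.2 estimated counts in Hmox2+/+ ECs and 14.2 to 28.1 in Hmox2-/- ECs (adjusted p = 0.109), and 24.3 to 109 against 6.23 to 52.6 in heart tissue (adjusted p = 0.176). Hmox2-202 had 0 to 71.9 estimated counts in Hmox2+/+ ECs and 3.12 to 10.9 in Hmox2-/- ECs (adjusted p = 0.428), and 0 to 52.0 against 0 to 8.37 in heart tissue (adjusted p = 0.261). Neither passed the test in edgeR, while DESeq2 called Hmox2-204 in ECs (-1.75, adjusted p = 0.0224). Hmox2-206 had 4.63 estimated counts in EC WT 2 and was listed at 0 in the other 12 libraries. Over all 4 genes, 3 of 11 member transcripts tested in ECs were called, where 5.74% of all transcripts tested were called, and 5 of 10 in heart tissue, where 6.10% were called.

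**Figure D3:**
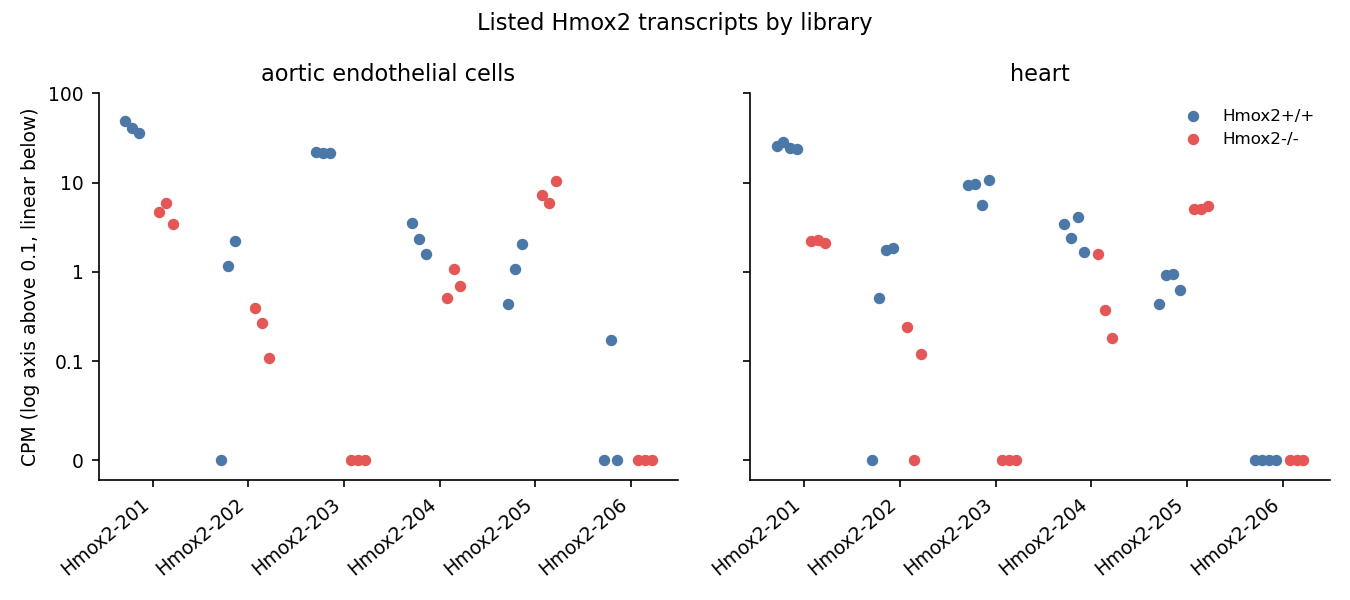
CPM of each listed Hmox2 transcript in every library, ECs on the left and heart on the right (log axis above 0.1, linear below). Hmox2-203 was at 0 in all 6 Hmox2-/- libraries, Hmox2-201 fell to 8.51% to 11.1% of its Hmox2+/+ mean, and Hmox2-205 was above its Hmox2+/+ range in all 6.

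As a share of Hmox2 TPM, Hmox2-205 went from 1.89%, 5.01% and 9.84% in Hmox2+/+ ECs to 81.2%, 72.5% and 88.5% in Hmox2-/- ECs. In heart tissue its share went from 3.69%, 6.81%, 7.55% and 5.22% to 75.9%, 86.2% and 88.7%. The mean difference was 75.1 percentage points in ECs (exact permutation test, two-sided, p = 0.1, the smallest that 3 against 3 libraries allow) and 77.8 percentage points in heart tissue (exact permutation p = 0.0286, the smallest that 4 against 3 allow, and 0.171 after adjustment over the 18 shares tested). With Hmox2-205 left out, Hmox2 was at 61.6 to 75.6 CPM in Hmox2+/+ ECs and 4.28 to 7.25 CPM in Hmox2-/- ECs, and at 36.3 to 41.4 CPM and 2.40 to 4.06 CPM in heart tissue. This choice, made after the values were seen, took the log2 fold change to -3.57 in ECs and -3.71 in heart tissue. By estimated counts, which are not divided by length, Hmox2-205 at 157 and Hmox2-201 at 155 were level in EC KO 2.

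Several stretches of Hmox2 are shared with other genes, and the counting was run with default parameters, which do not use the strand. The word counts here are for sequences cut at the 3′ end to the listed lengths, an assumption. Of the 31-base words of the listed Hmox2 transcripts, 45.0% also occurred in transcripts of another gene. With uncut M39 sequences, this part was 66.0% to 86.4% of the words of each Hmox2 transcript, highest for Hmox2-204, and 78.3% for Hmox2-205. Cdip1, which overlaps Hmox2 on the opposite strand, shared words only with exons 5 and 6 of Hmox2-201, Hmox2-202 and Hmox2-203, and these made up 48.9%, 23.5% and 25.1% of their words. The first exon of Hmox2-205 had 238 words, of which 203 occurred in Ppp4r2, a regulatory subunit gene of protein phosphatase 4, in the opposite orientation. Only 27 of the 554 words of Hmox2-205 occurred in no other listed transcript, and none of them lay within a single exon. For Hmox2-203 the number was 189 of 1257 words, 161 of them within its first exon.

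Both genes that share words with Hmox2 in the cut sequences were measured in the same libraries. Cdip1, a regulator of cell death, was at 147 ± 37.0 CPM in Hmox2+/+ ECs and 19.2 ± 3.82 CPM in Hmox2-/- ECs (log2 fold change -2.94, SE 0.23, adjusted p = 0.000957). In heart tissue it was at 65.1 ± 3.62 and 16.7 ± 2.05 CPM (log2 fold change -1.96, SE 0.11, adjusted p = 6.16e-07). Ppp4r2 was at 85.4 ± 7.53 and 91.8 ± 2.26 CPM in ECs (log2 fold change 0.10, adjusted p = 0.519) and at 41.9 ± 4.16 and 38.1 ± 1.97 CPM in heart tissue (log2 fold change -0.14, adjusted p = 0.310). With both genes added to Hmox2, the sum fell by 1.28 on the log2 scale in ECs and by 1.22 in heart tissue. Which of these genes the reads in shared stretches came from was not tested.

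Hmox1, the inducible heme oxygenase, rose in Hmox2-/- hearts. It was at 2.53, 4.15, 4.49 and 4.0 CPM in Hmox2+/+ hearts and at 12.4, 25.1 and 10.02 CPM in Hmox2-/- hearts. The groups did not overlap, and the 3 Hmox2-/- hearts differed among themselves more than the 4 Hmox2+/+ hearts did. The means were 3.79 ± 0.87 CPM (n = 4) and 15.8 ± 8.12 CPM (n = 3), a 4.17-fold difference of means or 1.998 on the log2 scale (SE 0.29, adjusted p = 0.000895). Heart WT 1, the shallowest library, held 17 Hmox1 counts, and the log2 fold change without it was 1.91 (adjusted p = 0.00362). Hmox1 had a word in common with no other gene, and Hmox1-201 held all its counts in every heart library.

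In ECs Hmox1 did not pass the test. It was at 10.7, 17.3 and 18.4 CPM in Hmox2+/+ ECs and at 25.2, 14.2 and 70.2 CPM in Hmox2-/- ECs. EC KO 2 lay inside the Hmox2+/+ range, EC KO 1 above it and EC KO 3 far above it. On the log2 scale the difference was 1.24 (SE 0.54, adjusted p = 0.145), and without EC KO 3 it was 0.35 (adjusted p = 0.507). DESeq2 gave 1.23 with an adjusted p of 0.0497.

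Markers of macrophages and of red cells moved with Hmox1 in part of these groups. In heart tissue 7 of 15 macrophage markers were called higher and none lower, where 33.4% of all genes tested were called. Among those called were Lyz2 (log2 fold change 1.16, adjusted p = 0.00201) and Lyve1 (0.91, adjusted p = 0.00415). Cd14 (-0.67), Mertk (-0.18), Mrc1 (-0.06) and Cd163 (-0.06) had estimates below 0 and were not called. The summed level of the 15 was 177 to 257 CPM in Hmox2+/+ and 282 to 465 CPM in Hmox2-/- hearts. Of 6 red cell genes tested in heart tissue 5 rose, including the globin gene Hbb-bs (2.31, adjusted p = 4.20e-05) and Alas2, the first enzyme of heme synthesis in red cells (1.69, adjusted p = 0.000633). The summed level of the listed red cell genes was 183 to 342 CPM in Hmox2+/+ hearts and 889 to 1458 CPM in Hmox2-/- hearts. No red cell gene was at 0 in all hearts, and Epb42 and Slc4a1 were at or below 0.449 CPM in each. In ECs 6 of 15 macrophage markers were called higher, where 18.1% of all genes tested were called, with sums of 646 to 843 and 1024 to 1559 CPM. Of 9 red cell genes in ECs 0 passed edgeR's adjusted threshold, against 1 at an unadjusted p under 0.05 and 1, lower, in DESeq2. EC KO 1 had the highest macrophage sum and Heart KO 1 the highest of both sums, while Hmox1 was highest in EC KO 3 and Heart KO 2. The part of these cells in the Hmox1, Blvra and Blvrb values was not tested.

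**Figure D4:**
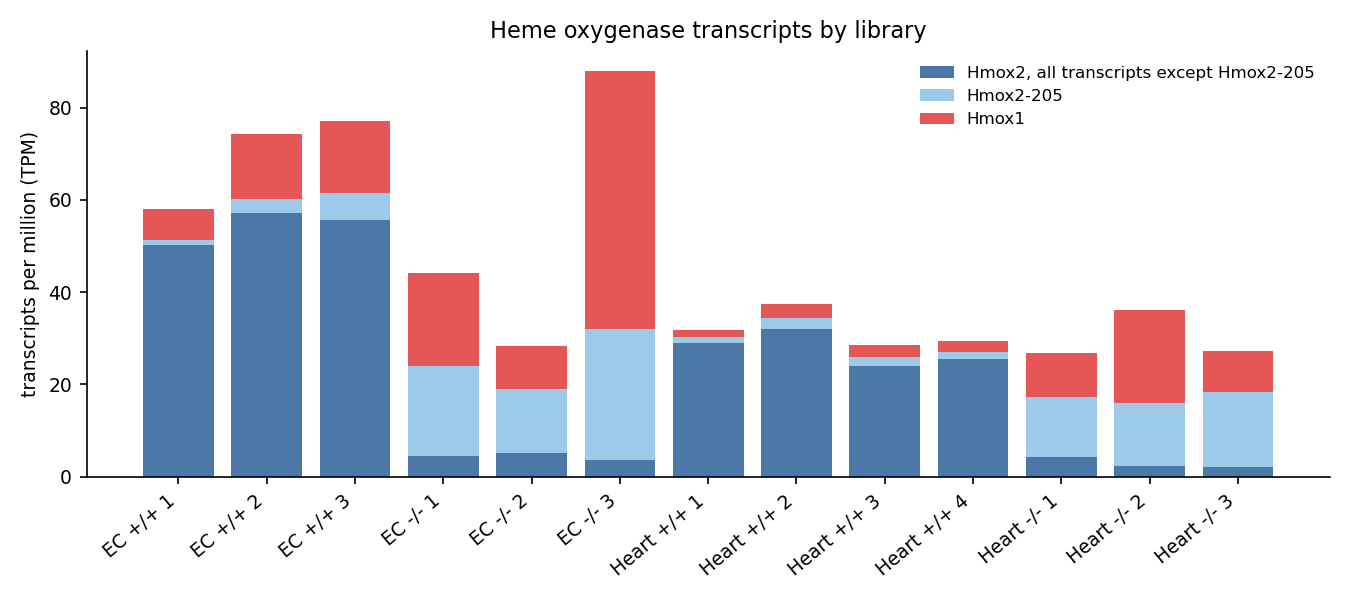
TPM of Hmox2 without Hmox2-205, of Hmox2-205 and of Hmox1, stacked for each library (tissue, +/+ or -/- for the Hmox2 genotype, and library number). Hmox1 took 5.26% to 20.2% of the sum in Hmox2+/+ libraries and 32.3% to 63.6% in Hmox2-/- libraries.

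On the TPM scale, which allows the genes to be compared, Hmox2 exceeded Hmox1 in every Hmox2+/+ library. Hmox2 was at 57.7 ± 5.60 TPM and Hmox1 at 12.2 ± 4.73 TPM in Hmox2+/+ ECs, and they were at 29.4 ± 3.85 and 2.49 ± 0.58 TPM in Hmox2+/+ hearts. Hmox1 made up 11.6%, 19.0% and 20.2% of heme oxygenase TPM in Hmox2+/+ ECs and 45.7%, 33.3% and 63.6% in Hmox2-/- ECs. In heart tissue it made up 5.26%, 8.15%, 9.43% and 8.58% in Hmox2+/+ and 35.6%, 55.9% and 32.3% in Hmox2-/- libraries. The summed heme oxygenase TPM was 31.8 ± 4.02 in Hmox2+/+ and 30.1 ± 5.26 in Hmox2-/- hearts, with overlapping libraries. Without Hmox2-205, Hmox2 was at 23.9 to 32.1 TPM in Hmox2+/+ and 2.08 to 4.16 TPM in Hmox2-/- hearts. The sum in Hmox2-/- hearts therefore holds mostly Hmox1 and what was assigned to Hmox2-205.

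Blvra, the main biliverdin reductase, rose in Hmox2-/- hearts. It was at 8.18, 8.93, 9.37 and 8.39 CPM in Hmox2+/+ hearts and at 15.9, 12.6 and 12.7 CPM in Hmox2-/- hearts, without overlap. The means were 8.72 ± 0.54 and 13.7 ± 1.92 CPM, a log2 difference of 0.65 (SE 0.13, adjusted p = 0.00405). In ECs it was at 42.8, 35.8 and 30.8 CPM in Hmox2+/+ and at 27.1, 30.3 and 29.1 CPM in Hmox2-/- mice. These groups did not overlap either, but EC WT 3 and EC KO 2 were close, and the log2 fold change of -0.34 (SE 0.14, adjusted p = 0.130) did not pass the test. It passed with all 13 libraries in 1 fit (-0.38, adjusted p = 0.0474) and without EC WT 3 (-0.45, adjusted p = 0.0461).

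Blvra-201, which encodes the full reductase of 885 coding bases, held 78.9% to 98.7% of Blvra TPM in every library. It rose in Hmox2-/- hearts (log2 fold change 0.71, SE 0.13, adjusted p = 0.0283). Its share of Blvra TPM was 86.9% ± 2.88 and 87.0% ± 3.26 in Hmox2+/+ and Hmox2-/- ECs, and 88.7% ± 7.44 and 90.5% ± 10.2 in the hearts. Blvra-202 was listed at 0 in all 13 libraries.

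Blvrb was at 6.25, 5.68, 5.45 and 6.16 CPM in Hmox2+/+ hearts and at 11.9, 9.10 and 6.79 CPM in Hmox2-/- hearts. Heart KO 3 was near the Hmox2+/+ libraries and Heart KO 1 was highest. Heart KO 1 also had the highest red cell and macrophage sums, but the red cell sum of Heart KO 3 was 889 CPM, above every Hmox2+/+ heart. The part of these cells in the Blvrb values was not tested. The means were 5.88 ± 0.38 and 9.27 ± 2.57 CPM, a log2 difference of 0.67 (SE 0.18, adjusted p = 0.0173). The call was lost without Heart KO 1 (0.45, adjusted p = 0.0624), without Heart KO 2 (0.68, adjusted p = 0.0509) or without Heart WT 3 (0.63, adjusted p = 0.0515). In ECs Blvrb was at 47.5, 48.2 and 48.2 CPM in Hmox2+/+ and at 45.5, 40.2 and 34.2 CPM in Hmox2-/- mice. All 3 Hmox2-/- EC libraries were below the Hmox2+/+ libraries, which lay within 1 CPM of each other, and the log2 difference of -0.26 did not pass the test (SE 0.13, adjusted p = 0.181).

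The heart values of both reductases were smaller with an offset for transcript length and GC content, an alternative added after the values were seen. With that offset the log2 fold change was 0.34 for Blvra (adjusted p = 0.0251) and 0.25 for Blvrb (adjusted p = 0.179). Hmox1 kept 1.75 (adjusted p = 0.000913) and Hmox2 -2.62.

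One Blvrb transcript had no estimated counts in Hmox2-/- ECs. Blvrb-202, whose first exon overlaps that of Blvrb-205 and no other listed one, with 360 coding bases against 618 in Blvrb-201, had 217, 182 and 341 estimated counts in Hmox2+/+ ECs and was listed at 0 in all 3 Hmox2-/- EC libraries. It was at least 74.5-fold lower against a floor of 3 counts per library (adjusted p = 0.0110), and its share of Blvrb TPM went from 22.4% ± 5.71 to 0%. Blvrb-201 was at 39.6 ± 2.88 and 39.5 ± 6.44 CPM (adjusted p = 0.992). In heart tissue Blvrb-202 had 10.9, 49.1, 32.6 and 0 estimated counts in Hmox2+/+ and 135, 12.6 and 58.5 in Hmox2-/- libraries, with overlapping groups (adjusted p = 0.746). Only 26 of the 752 words of Blvrb-202 occurred in no other listed transcript, so its estimate rests on few reads of its own, and Heart WT 4 at 0 shows that 0 also occurred in a Hmox2+/+ library.

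**Figure D5:**
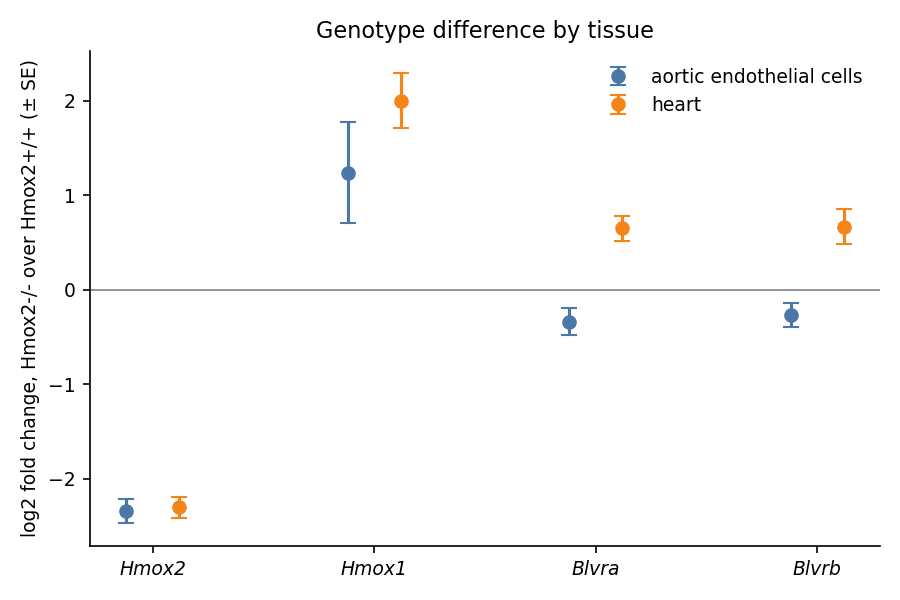
Log2 fold change of Hmox2-/- over Hmox2+/+ for each gene in ECs and in heart tissue, from the edgeR fit of each tissue, with its standard error as bars. Hmox2 was at -2.34 in ECs and -2.30 in heart tissue, and the estimates for Blvra and Blvrb were below 0 in ECs and above 0 in heart tissue.

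The difference between tissues was tested as the interaction of tissue and genotype over all 13 libraries, in which 28.8% of 15938 genes were called and 2 of these 4. The heart effect minus the EC effect was 1.03 for Blvra (SE 0.18, adjusted p = 0.00166) and 0.97 for Blvrb (SE 0.23, adjusted p = 0.00710) on the log2 scale. For Hmox2 it was 0.08 (SE 0.15, adjusted p = 0.709), and for Hmox1 0.81 (SE 0.65, adjusted p = 0.373), or 1.69 without EC KO 3 (adjusted p = 0.0285). With the offset for length and GC content the interaction was 0.62 for Blvra (adjusted p = 0.0229) and 0.23 for Blvrb (adjusted p = 0.326).

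Between tissues, RNA was isolated with different kits, so tissue and kit cannot be told apart. Scaled over all 13 libraries, Hmox2 was at 52.2 CPM in ECs and 50.9 CPM in hearts of Hmox2+/+ mice, a log2 difference of heart minus EC of -0.04 (SE 0.10, adjusted p = 0.752). The other 3 genes were lower in Hmox2+/+ hearts, with log2 differences of -1.22 for Hmox1 (adjusted p = 0.0303), -1.31 for Blvra (adjusted p = 4.92e-07) and -2.29 for Blvrb (adjusted p = 1.47e-08), where 65.8% of genes were called. The call of Hmox1 was lost without EC WT 2 (-1.13, adjusted p = 0.0726), EC WT 3 (-1.08, adjusted p = 0.0907), Heart WT 1 (-1.16, adjusted p = 0.0602) or Heart WT 4 (-1.27, adjusted p = 0.0530). In Hmox2-/- mice, where 70.4% of genes were called, only Blvrb was called among the 4 (-1.32, adjusted p = 6.05e-06). Hmox1 was at -0.41 (adjusted p = 0.431) and Blvra at -0.28 (adjusted p = 0.0750). On the TPM scale the order in Hmox2+/+ ECs was Blvrb (64.6 ± 10.8), Hmox2 (57.7 ± 5.60), Blvra (41.3 ± 2.60) and Hmox1 (12.2 ± 4.73), with Blvrb and Hmox2 overlapping. In Hmox2+/+ hearts it was Hmox2 (29.4 ± 3.85), Blvra (8.49 ± 0.92), Blvrb (6.84 ± 0.88) and Hmox1 (2.49 ± 0.58), with Blvra and Blvrb overlapping. Reductase TPM summed to 106 ± 11.8 and 81.7 ± 9.99 in Hmox2+/+ and Hmox2-/- ECs and to 15.3 ± 1.57 and 30.0 ± 5.42 in the hearts.

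The genes with the most similar profile were found by the root mean square difference of centred log2 CPM over the 13 libraries, among 11934 genes. For Hmox2 these were Cdip1 (0.28), Gm6123 (0.28) and Selenbp2 (0.32), against a standard deviation of Hmox2 itself of 1.14. Gm6123 went from a mean of 2.56 to 0.028 CPM in ECs and from 1.79 to 0.037 CPM in hearts. Selenbp2 went from 2.38 to 0.081 CPM and from 3.43 to 0.052 CPM. Both were near 0 in Hmox2-/- mice, where the pseudocount of 0.5 CPM limits the log2 difference, so their falls were larger than that of Hmox2. For Hmox1 they were Rabl2 (0.62), Rpl11 (0.63) and Ildr2 (0.63), which left most of its spread of 1.02 unmatched. Blvra was nearest to Atf4, Stx6 and Mtch1 (0.13 each) and Blvrb to Cstb (0.11), Rras (0.14) and Ppia (0.17). These profiles share libraries and depth, and they hold the tissue difference as well as the genotype difference. Cdip1 also shares words with Hmox2, so its profile is not independent of that of Hmox2.

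Of 10 regulators of heme oxygenase genes, 5 fell in Hmox2-/- hearts and none rose, where 33.4% of all genes tested were called in either direction, with a median log2 fold change of -0.31 against -0.01 over all genes tested. Nr1d1, a heme-binding nuclear receptor, went from 94.4 ± 15.6 to 47.5 ± 4.74 CPM (-0.99, adjusted p = 0.000657), and the hypoxia factor Hif1a from 78.3 ± 9.92 to 43.1 ± 1.54 CPM (-0.86, adjusted p = 0.000378). Nr1d2, Mafk and Mafg were the other 3. Bach1, the heme-sensing repressor of Hmox1, was at 30.1 ± 3.14 and 23.95 ± 5.11 CPM (-0.33, adjusted p = 0.103), and Nfe2l2, which encodes the activator NRF2, at 55.6 ± 6.81 and 53.3 ± 5.38 CPM (adjusted p = 0.708). In ECs 0 of the 10 passed edgeR's adjusted threshold, where 18.1% of all genes tested did. There 0 had an unadjusted p under 0.05 and DESeq2 called 0, with a median of -0.11 against -0.02.

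Of 5 electron donors and membrane partners, Por, the cytochrome P450 reductase that feeds both heme oxygenases, rose from 30.2 ± 2.20 to 38.8 ± 2.98 CPM in heart tissue (0.36, adjusted p = 0.0187), as did the heme-binding protein gene Pgrmc1 (0.50, adjusted p = 0.00691). In ECs 2 fell, Cyb5r3, a cytochrome b5 reductase (-0.63, adjusted p = 0.0190), and Pgrmc2 (-0.53, adjusted p = 0.0405). The medians of the list were 0.14 in heart tissue and -0.35 in ECs, with the other 3 genes in each tissue not passing the test. Over all genes tested, 33.4% were called in heart tissue and 18.1% in ECs.

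Among 11 heme and hemoglobin uptake and transport genes tested in each tissue, the hemoglobin scavenger receptor gene Cd163, which is also a macrophage marker, was the 1 gene that edgeR called in ECs, from 14.1 ± 1.25 to 38.3 ± 9.51 CPM (1.44, adjusted p = 0.00511), while DESeq2 called 2, both higher. In heart tissue Hp, which encodes the hemoglobin-binding protein haptoglobin, went from 0.30 ± 0.25 to 2.82 ± 0.33 CPM (2.94, adjusted p = 0.000488), and the heme transporter gene Slc48a1 from 44.1 ± 3.37 to 62.7 ± 3.41 CPM (0.51, adjusted p = 0.00309). Lrp1, the receptor gene for heme bound to hemopexin, fell in heart tissue (-0.48, adjusted p = 0.0128). The list medians were -0.17 in ECs and 0.16 in heart tissue. By edgeR 1 of 11 was called in ECs and 3 of 11 in heart tissue, against 18.1% and 33.4% of all genes tested.

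Of the 10 genes of bilirubin conjugation and transport, 6 were tested in ECs and 7 in heart tissue. Glutathione transferase genes led those called: Gsta4 (1.17, adjusted p = 3.11e-05), Gsta3 (0.88, adjusted p = 0.00779) and Gstm1 (0.65, adjusted p = 0.000656) rose in heart tissue, and Gsta3 fell in ECs (-2.25, adjusted p = 0.0140). The exporter gene Abcc1 fell in heart tissue (-0.49, adjusted p = 0.00971). Ugt1a1, the bilirubin-conjugating enzyme of liver, was listed at 0 in all 7 hearts and did not pass the filter in ECs. The medians were -0.26 in ECs and 0.28 in heart tissue. By edgeR 1 of 6 was called in ECs and 4 of 7 in heart tissue, against 18.1% and 33.4% of all genes tested.

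Of 7 genes for proteins that respond to carbon monoxide, 1 fell in each tissue and none rose by edgeR, while DESeq2 called 3 lower and 2 higher in ECs. Over all genes tested, edgeR called 18.1% in ECs and 33.4% in heart tissue. Gucy1a1, a subunit of soluble guanylate cyclase, went from 33.0 ± 9.65 to 14.2 ± 4.96 CPM in ECs (-1.22, adjusted p = 0.0304), where 3 of 7 smooth muscle markers also fell and their sum was 3294 to 6440 CPM in Hmox2+/+ and 1063 to 3636 CPM in Hmox2-/- libraries. The part of smooth muscle RNA in this value was not tested. Prkg1, the kinase gene downstream of cyclic GMP, went from 15.3 ± 1.92 to 6.37 ± 1.58 CPM in heart tissue (-1.27, adjusted p = 0.000654). The medians were -0.82 in ECs and 0.01 in heart tissue.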

How the data were processed

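The authors sequenced oligo-dT-selected RNA as paired reads and ran kallisto 0.44.0 with default parameters on each library, without pooling. The deposited files hold estimated counts and TPM per transcript, as the authors made them, with no scaling across libraries. GENCODE M32 is named as the index in the methods. The 118489 listed transcripts were matched to GENCODE M39 (GRCm39) by stable identifier without version, and 115140 (97.2%) matched. Many are longer in M39, so sequences were cut at the 3′ end to the listed length, an assumption, and compared by 31-base words.

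Transcript counts were added up by gene and rounded. After filterByExpr (minimum count 10) and TMM scaling, genes and transcripts were tested within each tissue with edgeR 4.0.16 (quasi-likelihood, R 4.3.3), and over all 13 libraries for the interaction and the tissue contrast. CPM are relative to TMM-scaled library sizes. Adjusted p-values are Benjamini-Hochberg values over all features tested. Standard errors are the fold change over the square root of F. Each library was taken as 1 mouse. The labels number replicates within groups only.

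Named were the 4 genes and their transcripts, genes overlapping Hmox2 or holding at least 5% of the words of one of its transcripts, the 2 largest changes per list, tissue and direction among those called, the 3 nearest profiles (mean CPM of at least 1 in both tissues, pseudocount 0.5) and Ddx3y. Beyond this rule Bach1, Nfe2l2, Ugt1a1, Nr1d2, Mafk, Mafg, Gstm1 and the marker genes were named after their values were seen. Members, gene lists and tests were chosen with earlier results of these data known. On simulated counts with 200 changed features, the fits called 200 genes in ECs and 200 in heart tissue at a log2 fold change of 2, 196 for the interaction and 200 for the tissue contrast, and 187 transcripts in ECs and 193 in heart tissue at 4. Of the unchanged features 3 to 14 were called per fit. The simulation used the same dispersion for every feature and changes larger than those of the reductases, so it does not show how often such smaller changes are found.

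Alternatives were DESeq2 1.42.0, other scalings and filters, length-scaled TPM, 1 fit over all libraries, a replicate block, coding transcripts alone, no mitochondrial genes, genes sharing words summed and each library left out. A further 3 were added after the values were seen: no Hmox2-205, EC KO 1 alone, and an offset for length and GC content. Figures were drawn with matplotlib 3.10.9.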

Additional observations from a re-analysis of the deposited data

Results flagged for a closer look

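For 2 of the 4 genes the genotype effect differed between tissues by the interaction term. The heart effect minus the EC effect was 1.03 on the log2 scale for Blvra (SE 0.18, adjusted p = 0.00166, edgeR). Fitted within each tissue, Blvra was at 0.65 in heart tissue and at -0.34 in ECs, where it was not called (adjusted p = 0.130). For Blvrb the heart effect minus the EC effect was 0.97 (SE 0.23, adjusted p = 0.00710). Fitted within each tissue, Blvrb was at 0.67 in heart tissue and at -0.26 in ECs, where it was not called (adjusted p = 0.181). In the interaction test 28.8% of all genes were called. With an offset for length and GC content, an alternative chosen after seeing the data, the values were 0.62 (adjusted p = 0.0229) and 0.23 (adjusted p = 0.326). Outliers were sought by a gap ratio, the gap to the nearest library over the range, with a cutoff of 0.829 for 4 libraries. No Hmox2+/+ heart passed it in the 4 genes or the Hmox2 transcripts, over 9 sets of values compared. The largest ratios were 0.762 for Hmox2-203 in Heart WT 3 and 0.749 for Hmox1 in Heart WT 1. With 4 libraries only an extreme gap can pass, and groups of 3 libraries were not checked.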

How the results depend on the processing

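Of 485 values recomputed for 49 results, 447 kept their direction and their side of the threshold, or for a count stayed within 1.5 times. Hmox2 kept both in each of the 19 alternatives in ECs and 19 in heart tissue, from -3.57 to -1.16 and from -3.71 to -1.09 on the log2 scale. Hmox1 and Blvra kept both in each of the 17 heart alternatives, from 1.51 to 2.24 and from 0.34 to 0.71. The cause of the changes below was not tested.

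In ECs Hmox1 passed with DESeq2 (1.23) and Blvra in 1 fit over all libraries (-0.38), a fit that called 4319 genes in place of 2766. EC KO 1, the Hmox2-/- EC library that held Ddx3y, was also compared alone with the Hmox2+/+ ECs. The log2 fold changes were then -2.44 for Hmox2, 0.71 for Hmox1, -0.42 for Blvra and -0.07 for Blvrb, from 1 Hmox2-/- library. With the offset for length and GC content, Blvrb was at 0.071 in ECs and 0.25 in heart tissue and its interaction at 0.23, and the interaction of Hmox2 was -0.42 (adjusted p = 0.0794). With upper-quartile scaling, heart minus EC in Hmox2-/- mice was -0.20 for Hmox2 and -0.52 for Blvra, which then passed, as it did without mitochondrial genes (-0.32). As a share of estimated counts in place of TPM, Hmox2-204 differed by 2.04 points in ECs and 0.68 in heart tissue and Blvra-201 by -0.30 in ECs.

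Leaving out 1 library at a time gave 638 (without EC KO 3) to 3596 called genes in ECs and 2888 (without Heart KO 2) to 5686 in heart tissue. The EC range was -0.45 to -0.21 for Blvra, and the heart range 0.45 to 0.85 for Blvrb. The interaction of Hmox1 ranged from 0.32 to 1.69. Heart minus EC ranged in Hmox2+/+ mice from -1.42 to -1.08 for Hmox1 and from -0.12 to 0.040 (without EC WT 1) for Hmox2, and in Hmox2-/- mice from -0.94 to 0.47 (without EC KO 3) for Hmox1, for Hmox2 from -0.015 to 0.10 and, for Blvra, from -0.38 to -0.23.

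Libraries with the same number did not deviate together throughout, with correlations of 0.08 to 0.21 between Hmox2+/+ and Hmox2-/- ECs, of -0.09 to 0.11 between the hearts and of -0.05 to 0.30 between Hmox2-/- ECs and Hmox2-/- hearts. Of the 6 EC libraries 5 correlated best with their own number in the other genotype, the exception being EC KO 3, a hint from the data and not from the design. With the replicate block 2716 genes were called in ECs and 2899 in place of 4618 in heart tissue, and no call of the 4 genes changed.

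Transcript estimates rest on few words of their own, and Heart WT 1 held 17 Hmox1 and 42 Blvrb counts.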
